A study of Mus musculus with 2 samples.

Results

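The nuclear receptor superfamily was read in whole liver of mouse embryos at day 13.5. Its members were 41 listed genes, found in both deposited gene tables by gene ID through mouse GENCODE symbols, out of 43346 annotated genes. The list is not the whole superfamily, since Hnf4a for example is outside it, and the family below means these 41 genes. All 41 were present in the tables. They were ranked by level, grouped into 15 classes by the ligand each receptor is known for, and followed to their transcripts.

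The series holds 2 libraries of total RNA from B6NCrl embryos, an inbred C57BL/6N strain, pooled from both sexes, each made from 10 ng of RNA over 200 nt in size, to which spike-in RNAs had been added. They form 1 group with no second tissue, age or treatment. The labels call the samples separate biological replicates that share 1 donor entry, so every SD below is over n = 2 and covers the spread of these samples alone. No test of a condition was possible, and no p-value is given.

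Nuclear receptors are transcription factors with a zinc-finger domain that binds DNA and, in most, a pocket that binds a small lipid-soluble ligand. Many bind as dimers with a retinoid X receptor, whereas steroid receptors bind as dimers of their own kind. Without ligand several recruit corepressors, and ligand exchanges these for coactivators. In the adult liver they govern lipid, bile acid, drug and glucose metabolism, and in the embryo retinoid, thyroid hormone and glucocorticoid receptors take part in the growth of the organ.

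The stretch that reads the DNA hexamer, called the P-box, shows how the members differ and is given for 6 of them. It lies at the end of the first zinc finger, and a search of the coding sequence for the cysteine spacing of that finger found it in 39 of 41 members. None was found in Nr0b1, a receptor that lacks the zinc-finger domain, and that of Nr3c1 was not read. Each line holds 24 coding bases of GRCm38, 5′ to 3′, and capitals mark the codons of the 3 residues that set the hexamer preference.
Nr1h2 (chr7:44552094-44552117, minus strand): tgtGAAGGCtgcaaaGGCttcttc
Rxrb (chr17:34034045-34034068, plus strand): tgcGAGGGCtgcaagGGTttcttc
Nr2f6 (chr8:71381029-71381052, minus strand): tgcGAGGGCtgcaagAGTttcttc
Nr2f2 (chr7:70360021-70360044, minus strand): tgcGAGGGCtgcaagAGCttcttc
Esrra (chr19:6920079-6920102, minus strand): tgtGAGGCCtgcaaaGCCttcttc
Nr3c2 (chr8:77085627-77085650, plus strand): tgcGGCAGCtgcaaaGTCttcttc
Nr1h2 and Rxrb carry glutamate, glycine and glycine at these positions, as do 24 of the 39 members read. The 3 NR2F receptors have serine in the last place, the 3 estrogen-related receptors have alanine in the last 2, and Nr3c2 and Pgr have glycine, serine and valine. Of the 19 members at or above 1 TPM in both libraries, 18 were read, and 14 of these had the glutamate, glycine and glycine form.

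Receptor transcripts were sparse beside the bulk of the transcriptome, and a few members held most of them. Replicate 1 held 39182457 expected counts on annotated genes and replicate 2 held 37432977. The members took 13164.5 and 13229.9 of these. Genes were compared by TPM, which scales counts by transcript length and by the library total. In both libraries 19 of 41 members reached 1 TPM, against 28.1% of all annotated genes and 52.1% of protein-coding genes. Of the others, 21 were below 1 TPM in both and Nr6a1 was below in 1 library only. The median over all 41 members was 0.88 TPM ± 0.141, and over protein-coding genes it was 1.44 TPM. Among genes at or above 1 TPM in both, the medians were 3.48 TPM for members and 12.4 TPM for protein-coding genes. Only 5 members reached 10 TPM in both libraries, and these held 65.1% ± 0.765 of the summed TPM of the family.

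The tissue label was checked against marker genes before the members were read. All 7 hepatoblast markers and all 6 erythroid markers were at or above 1 TPM in both libraries, as were the 6 endothelial and 7 stellate and mesenchymal markers. Markers of tissues outside the liver were also read. All 4 skeletal muscle markers were at or above 1 TPM in both, with sums of 57.4 and 45.0 TPM. So were 2 of 3 neuron markers, and all 3 summed to 7.25 and 4.54 TPM. Of the 6 heart markers, 3 were at that level, and all 6 summed to 36.4 TPM in the first replicate and 88.9 in the other. None of the 5 adrenal and gonad markers was, with sums of 0.82 and 0.94 TPM. The part of these tissues in the level of any member was not tested. In these bulk libraries, fewer cells of a type and less RNA per cell cannot be told apart.

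**Figure D1:**
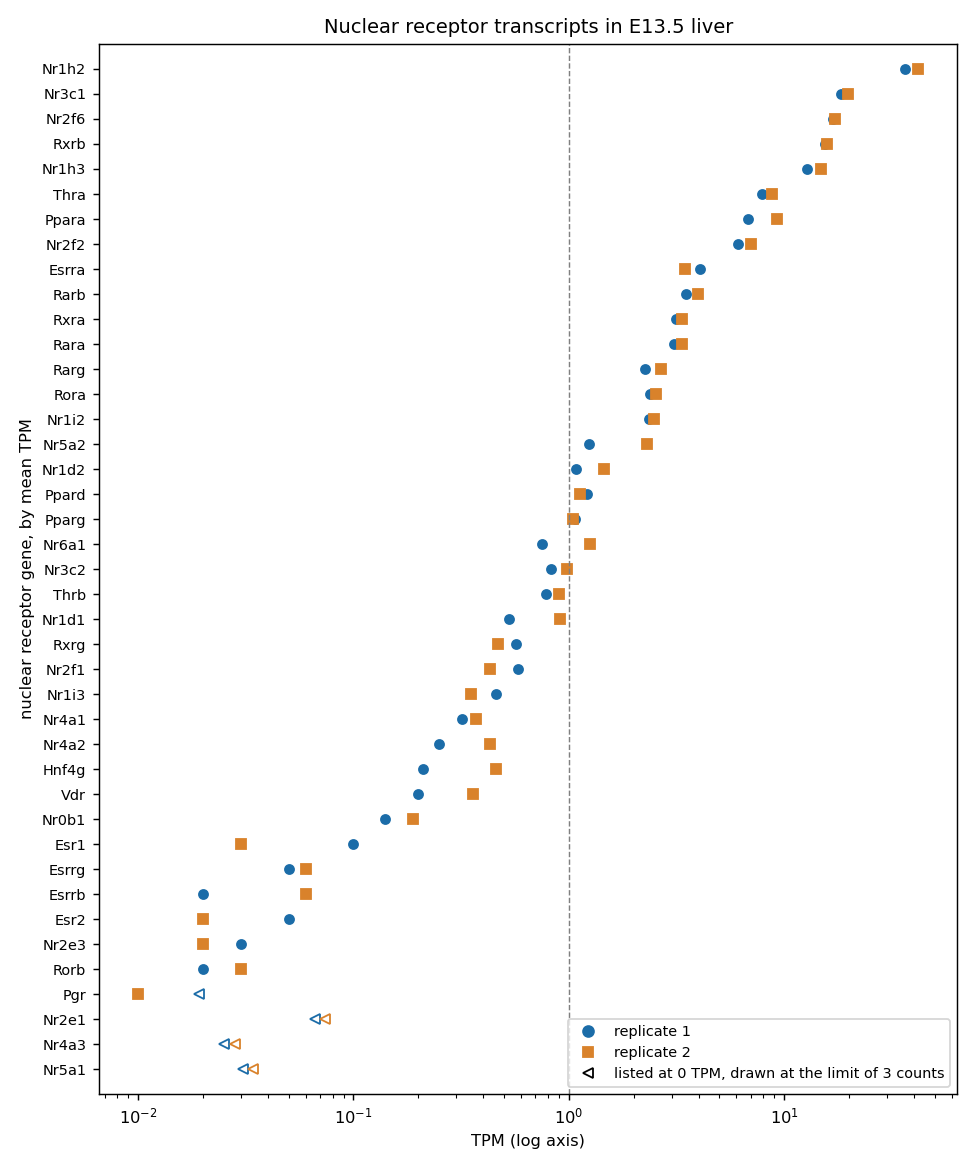
TPM of each of the 41 receptors (horizontal log axis) in replicate 1 (circles) and replicate 2 (squares), ordered by mean TPM, with a dashed line at 1 TPM. Open triangles stand for members listed at 0 TPM, drawn at the limit that 3 counts allow, and Nr1h2 lies highest at 36.2 and 42.0 TPM.

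The oxysterol receptors were the most abundant class. Nr1h2 and Nr1h3, known as LXR beta and LXR alpha, sense oxidised cholesterol and drive cholesterol export and fatty acid synthesis. Nr1h2 (ENSMUSG00000060601.8, chr7:44549616-44553951) stood at 36.2 and 42.0 TPM in replicates 1 and 2, a mean of 39.1 ± 4.07. Nr1h3 (chr2:91184061-91202834) stood at 12.7 and 14.8 TPM. The form with broad tissue expression therefore exceeded the liver-enriched form, by a log2 ratio of 1.51 in each library. Together they held 32.9% ± 0.804 of the TPM of the family.

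Of 8 oxysterol receptor targets, 6 were at or above 1 TPM in both libraries, against 52.1% of protein-coding genes. This and the other gene lists were picked by hand. Such a count does not measure receptor activity, which was not tested. Lpcat3, a phospholipid remodelling enzyme, stood at 63.8 TPM ± 3.25. Srebf1, the regulator of fatty acid synthesis, stood at 39.2 TPM ± 0.827, and Abcg1, a cholesterol exporter, at 8.4 TPM ± 0.0566. Abcg5 and Abcg8, which form the exporter of sterols into bile, remained at or below 0.39 TPM in both libraries.

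The retinoid X receptors, the shared dimer partners, held 12.1% ± 0.732 of the summed TPM, most of it from a single gene. Rxrb (chr17:34031812-34038399) stood at 15.4 and 15.9 TPM. Rxra (chr2:27676440-27762957), the form best known from adult liver, stood at 3.13 and 3.35 TPM. Rxrg, known mainly from muscle and brain, was at 0.57 and 0.47 TPM. The ranges of the 3 genes did not overlap, and the log2 ratio of Rxrb over Rxra was 2.27 ± 0.04. As dimer partners, 13 members were taken, those of the thyroid hormone, retinoic acid, vitamin D, fatty acid, oxysterol and xenobiotic classes. These summed to 4.37 ± 0.369 times the TPM of the retinoid X receptors. Members of other classes were not counted as partners, and the ratio depends on that choice. At or above 1 TPM in both libraries were 10 of the 13, against 52.1% of protein-coding genes.

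All 3 retinoic acid receptors were present at similar levels. These receptors carry the signal of vitamin A in development. Rarb (chr14:16430839-16819156) stood at 3.5 and 3.96 TPM and Rara (chr11:98927818-98974942) at 3.08 and 3.35 TPM. Rarg stood at 2.25 and 2.68 TPM. The order Rarb, Rara, Rarg was the same in both libraries, with log2 ratios of 0.60 ± 0.05 for Rarb over Rarg and 0.39 ± 0.09 for Rara over Rarg. It turned with another estimate of the level, since the posterior mean TPM put Rarg at 5.07 TPM and the ratios at −0.46 and −0.49.

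Rarb is a classic target of retinoic acid, and its start region carries the sequence for which it is known. Promoter windows from RefSeq on GRCm38.p6, 250 bases before to 50 after the start, were found for 37 of the 41 members, 57 windows in all. They were searched on both strands for a direct repeat with 1 to 5 bases between the copies. A copy was the hexamer AGGTCA or a variant known from such sites, namely GGGTCA, then the form AGTTCA, or else GGTTCA. Such a repeat occurred in 0.7% of 32851 windows of all genes and in 1 of the 57, that of Rarb. The hexamers searched include both copies of this known site, so the match in Rarb was set in advance. With 1 match, the count does not set the members apart from all genes. The site is shown with its flanks, on the minus strand, with the hexamers in capitals.
Rarb (chr14:16575506-16575535, minus strand): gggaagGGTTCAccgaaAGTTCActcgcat
The copies are 5 bases apart, and the repeat lies 53 to 37 bases before the RefSeq start. The start of Rarb-201 in GENCODE lies 67 bases upstream of that start, which places the repeat inside the first exon of that model. The single hexamer AGGTCA, by contrast, occurred in 16.3% of all windows and in 11 of the 57. A match is a description of the letters and does not show that a receptor binds there.

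Of 16 listed genes that supply and clear retinoids, 10 were at or above 1 TPM in both libraries, against 52.1% of protein-coding genes. Rbp4, the plasma carrier of retinol, stood at 1478 TPM ± 116. The retinal reductase Dhrs3 stood at 25.1 TPM ± 3.93. Aldh1a2, which makes retinoic acid, was at 1.79 and 2.5 TPM. None of the 3 Cyp26 genes, whose enzymes degrade retinoic acid and which were singled out after their values were seen, exceeded 0.25 TPM.

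The thyroid hormone receptors were represented mainly by Thra. Thra (chr11:98740638-98769006) stood at 7.92 and 8.79 TPM and Thrb, the form that predominates in adult liver, at 0.78 and 0.90 TPM. The ranges were far apart, with a log2 ratio of 3.32 ± 0.04. Thrb rested on 171 and 175 counts.

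Thra makes transcripts with different endings, and both were present. Thra-202, with 410 codons, encodes the hormone-binding receptor, and Thra-201, with 492 codons, encodes the variant that does not bind hormone. They share their first 370 codons. The lines show 60 coding bases around the point where they part, with the bases of each ending in capitals.
Thra-202: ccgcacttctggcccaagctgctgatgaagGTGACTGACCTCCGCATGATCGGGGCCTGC
Thra-201: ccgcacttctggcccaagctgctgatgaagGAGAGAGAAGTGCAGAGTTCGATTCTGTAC
The capitals lie at chr11:98764406-98764435 for Thra-202 and at chr11:98768157-98768186 for Thra-201, on the plus strand of GRCm38. Thra-202 held 51.6% of the TPM of the gene in replicate 1 and 50.3% in replicate 2. Thra-201 held 43.9% and 41.3%. Their ranges did not overlap, and Thra-202 was higher in both libraries.

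The ending of Thra-201 lies across from another member. The 3′ end of Nr1d1, on the opposite strand, overlaps Thra over 1075 bases, and 263 exonic bases of Thra-201 fall in exons of Nr1d1. Thra-202 shares none. The sources used here do not say whether counting used strand, so reads in that overlap may belong to either gene. The deposited counts of the pair were not whole, at 655.24 and 625.41 for Thra and 52.76 and 71.59 for Nr1d1, as happens where reads are divided. The posterior SD of the count was the same for both genes, at 1.89 in replicate 1 and 2.38 in replicate 2. Equal values are those of reads divided between this pair. Whether counting used strand was not tested. Esrra, Nr2f6, Rarb and Nr1i3 also overlap a neighbouring gene. The counts of Nr2f6 and Nr1i3 were likewise not whole, and the same limit holds for them. Those of Esrra and Rarb were whole in both libraries, so no division of reads shows there.

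Genes that carry, transport and convert thyroid hormone were present in part. Of 9 listed, 4 were at or above 1 TPM in both libraries, against 52.1% of protein-coding genes. Ttr, a plasma carrier, stood at 362 TPM ± 4.67 and the transporter Slc16a10 at 42.3 TPM ± 5.55. The 3 deiodinases Dio1, Dio2 and Dio3, singled out after their values were seen, did not exceed 0.11 TPM, nor did the transporter Slco1c1 at 0.02 and 0.01 TPM.

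Among steroid receptors a single gene made up nearly all of the TPM. Nr3c1, the glucocorticoid receptor (chr18:39410545-39519421), stood at 18.3 and 19.8 TPM, the second highest level of the family. Nr3c2, the mineralocorticoid receptor, stood at 0.83 and 0.98 TPM, the nearest below 1 TPM in both libraries. Esr1 and Esr2, the estrogen receptors, were at or below 0.1 TPM, and Pgr, the progesterone receptor, had no count in 1 library and 1 count in the other. Nr3c1 therefore exceeded its closest relative by a log2 ratio of 4.40 ± 0.09.

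The level of Nr3c1 depended on which transcripts were credited. Transcript models annotated as incomplete held 70.8% of its TPM, and the same count gives a higher TPM over a shorter model. Nr3c1-208, of 1891 nt, held 55.9% and 54.4%. Nr3c1-203, a complete transcript of 6436 nt, held 24.4% and 28.0% of TPM and 59.2% ± 3.42 of expected counts. With all counts placed over that complete transcript, Nr3c1 stood at 7.88 and 9.00 TPM, a mean of 8.44 in place of 19.1. It then took rank 5. Nr3c2 moved likewise, to 0.323 TPM.

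Genes that serve the glucocorticoid receptor were read next. All 9 listed genes of steroid transport, steroid conversion and receptor folding were at or above 1 TPM in both libraries, against 52.1% of protein-coding genes. Serpina6, the plasma carrier of glucocorticoids, stood at 1248 TPM ± 125. The chaperones Hsp90aa1 and Hsp90ab1, which hold the receptor ready for ligand, stood at 1067 TPM ± 92.2 and 923 TPM ± 32.3. Of 8 target genes 5 were at or above 1 TPM in both libraries, against 52.1% of protein-coding genes. They were led by Dusp1 at 22.3 TPM ± 3.22, Tsc22d3 at 10.7 TPM ± 1.34 and Fkbp5 at 10.1 TPM ± 0.658. Fkbp5 is counted in both lists. The 3 targets below 1 TPM were Zbtb16 and the genes of hepatic amino acid and glucose metabolism Tat and Pck1, all at or below 0.42 TPM.

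All 3 fatty acid receptors were at or above 1 TPM in both libraries, with Ppara ahead. Ppara (chr15:85734983-85802819), the driver of fatty acid oxidation, stood at 6.76 and 9.23 TPM. Ppard, which is broadly expressed, stood at 1.21 and 1.13 TPM. Pparg, the receptor of fat storage, stood at 1.07 and 1.05 TPM and was the member nearest above the 1 TPM line. Ppara exceeded Ppard by a log2 ratio of 2.76 ± 0.39 and Pparg by 2.90 ± 0.34. Short incomplete models held 29.98% of its TPM, and over its complete transcript Ppara stood at 6.71 TPM ± 1.06.

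Of 12 listed targets of these receptors, 10 were at or above 1 TPM in both libraries, against 52.1% of protein-coding genes. Fabp1, the fatty acid carrier of the liver, stood at 212 TPM ± 18.5. Plin2, which coats lipid droplets, stood at 132 TPM ± 2.38 and Acadm, an enzyme of fatty acid oxidation, at 51.3 TPM ± 6.78. Cyp4a14 was listed at 0 in both libraries, and Pdk4 stood at 0.93 and 1.26 TPM.

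The xenobiotic receptors, which induce drug-metabolising enzymes, were low. Nr1i2, the pregnane X receptor, stood at 2.36 and 2.48 TPM. Nr1i3, the constitutive androstane receptor, stood at 0.46 and 0.35 TPM, and the ranges did not overlap. Of 6 targets, 1 was at or above 1 TPM in both libraries, against 52.1% of protein-coding genes. It was the glutathione transferase Gstm1 at 215 TPM ± 5.87. The next highest were Cyp3a11 at 0.82 TPM ± 0.0849 and Abcb1a at 0.435 TPM ± 0.0636.

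The heme receptors and the ROR receptors act on the same response elements in the circadian clock, the former as repressors and the latter as activators. Rora stood at 2.39 and 2.54 TPM, while Rorb had 5 counts in each library. Nr1d2 stood at 1.08 and 1.46 TPM and Nr1d1 at 0.53 and 0.91 TPM. The log2 ratio of Nr1d2 over Nr1d1 was 0.85 ± 0.24. Of 10 clock genes linked to them, 7 were at or above 1 TPM in both libraries, against 52.1% of protein-coding genes. Cry2 at 8.89 TPM ± 0.969, Cry1 at 7.02 TPM ± 0.262 and Arntl at 4.16 TPM ± 0.665 were the highest, and Clock, Npas2 and Dbp were not at 1 TPM in both.

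**Figure D2:**
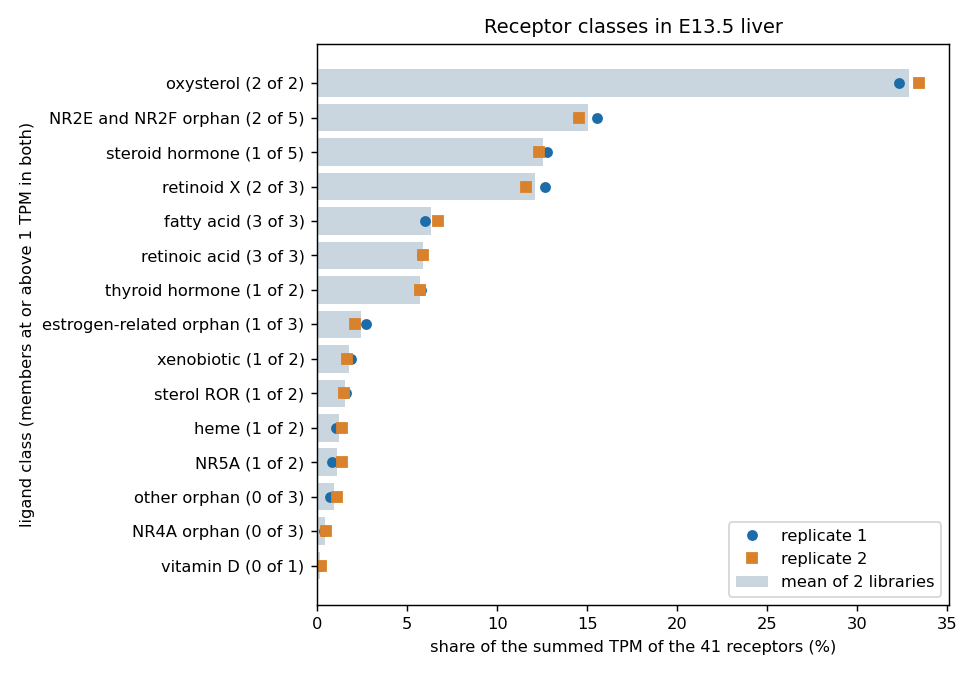
Share of the summed TPM of the 41 receptors (horizontal axis, percent) held by each of the 15 ligand classes, as the mean of 2 libraries (bars) with replicate 1 (circles) and replicate 2 (squares). The oxysterol receptors hold 32.9%, and the numbers beside each name are members at or above 1 TPM in both libraries of all members.

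Among receptors without an accepted hormone, the NR2F genes led. Nr2f6 (chr8:71374123-71381960), a repressor, stood at 16.8 and 17.2 TPM. Nr2f2 (chr7:70351944-70366735), known as COUP-TFII and needed in vessels and mesenchyme, stood at 6.08 and 7.01 TPM. Nr2f1, its closest relative, stood at 0.58 and 0.43 TPM. Nr2e1 and Nr2e3, known from brain and retina, had 0 counts and 1 count per library. The class held 15.02% ± 0.702 of the summed TPM.

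Of the estrogen-related receptors, which regulate mitochondrial genes, Esrra (chr19:6910977-6921813) stood at 4.05 and 3.45 TPM. Esrrb and Esrrg were at or below 0.06 TPM. Nr5a2, known as LRH-1 and a regulator of bile acid synthesis, stood at 1.24 and 2.31 TPM. Nr5a1, the steroidogenic factor of adrenal and gonad, had no count in either library, which allows at most 0.0308 and 0.0343 TPM at 3 counts. Nr0b1, known from the same organs, had 9 and 11 counts.

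The remaining orphan receptors of the list stayed near or below 1 TPM. Nr6a1, a receptor of germ cells and early embryos, stood at 0.75 and 1.25 TPM. Hnf4g stood at 0.21 and 0.46 TPM. Of the immediate early NR4A genes, Nr4a1 stood at 0.32 and 0.37 TPM, Nr4a2 at 0.25 and 0.43 TPM, and Nr4a3 had no count. Vdr, the vitamin D receptor, stood at 0.2 and 0.36 TPM. The posterior mean TPM put some of these higher, with Nr6a1 at 1.65 TPM, Nr4a2 at 0.755 TPM and Vdr at 0.73 TPM, whereas Nr4a1 and Hnf4g were each at 0.355 TPM. With no count in either library for 3 members (Nr2e1, Nr4a3 and Nr5a1), the limits at 3 counts lay between 0.0252 and 0.0737 TPM.

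Summed by broad group, sensors of lipid, heme and xenobiotics held 43.8% ± 1.38 of the TPM of the family and receptors of hormones and vitamins 24.3% ± 0.24. Orphan receptors held 19.9% ± 0.409 and retinoid X receptors 12.1%. At or above 1 TPM in both libraries were 8 of 11 sensors, 5 of 11 hormone and vitamin receptors, 4 of 16 orphan receptors and 2 of 3 retinoid X receptors. The share of protein-coding genes at that level was 52.1%. The order of the broad groups was the same in both libraries. With all counts over complete transcripts, the hormone and vitamin group fell to 19.1% and orphan receptors stood at 20.6%, so those groups changed places.

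The order of single members was fixed only in part by the replicates. Among the 19 members at or above 1 TPM, the ranges of neighbouring ranks were separate in 10 of 18 cases. The first 5 members (Nr1h2, Nr3c1, Nr2f6, Rxrb and Nr1h3) each lay above the next, whereas Thra overlapped Ppara. Ppara in turn overlapped Nr2f2. Further down, Esrra could not be separated from Rarb, nor Rxra from Rara. Rarg, Rora and Nr1i2 overlapped in turn, as did Nr5a2, Nr1d2 and Ppard.

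Cofactors of the receptors were read as 2 lists. Of 12 coactivators, 11 were at or above 1 TPM in both libraries, against 52.1% of protein-coding genes. Med1, the Mediator subunit that contacts nuclear receptors, stood at 30.9 TPM ± 5.44. Pprc1, a relative of PGC-1, stood at 19.8 TPM ± 2.54 and the arginine methyltransferase Carm1 at 14.4 TPM ± 0.665. Ncoa1, the founding steroid receptor coactivator, was the 1 below, at 0.52 and 0.54 TPM.

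By TPM, corepressors were higher as a list. Of 11, 10 were at or above 1 TPM in both libraries, beside 52.1% of protein-coding genes. The median of the list was 17.4 TPM ± 0.474, against 6.26 TPM ± 1.70 for coactivators. Gps2 stood at 100.1 TPM ± 5.82 and Ncor1, the corepressor of thyroid and retinoic acid receptors, at 70.2 TPM ± 1.20. Ncor1 rested on 5311 and 5077 counts, whereas the coactivator Crebbp had 3176.28 and 2901.52 counts at 8.39 and 8.56 TPM. Cofactor levels over complete transcripts were not computed, so the order of the lists may depend on the transcript models credited. Cops2 stood at 54.0 TPM ± 9.90. Hr, a corepressor of skin and brain, was at or below 0.03 TPM.

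**Figure D3:**
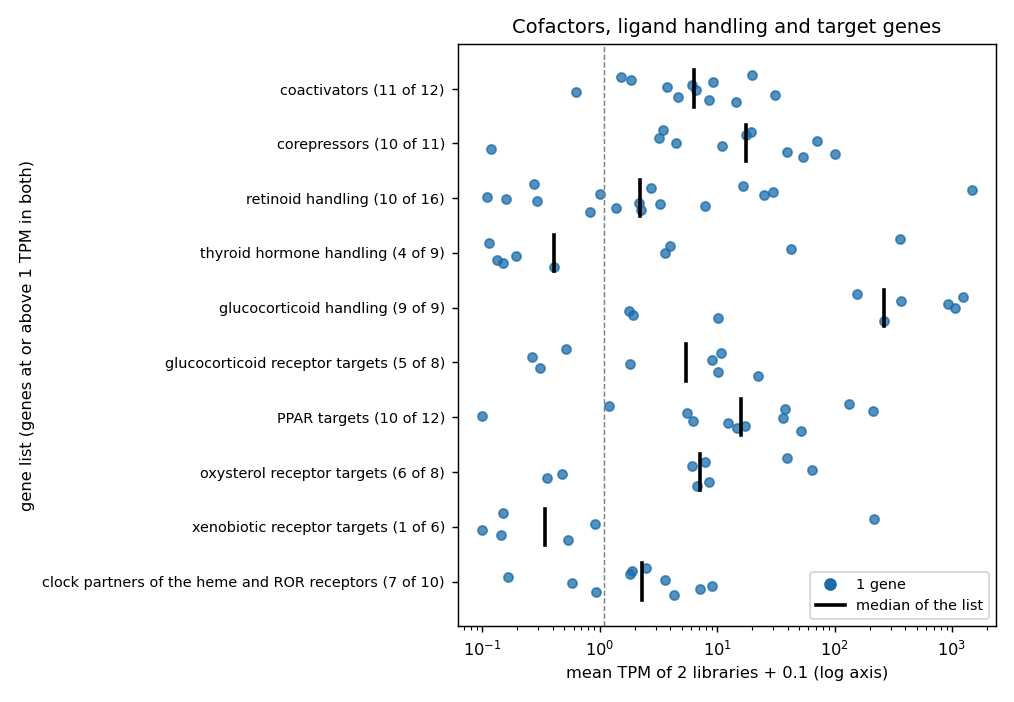
Mean TPM of 2 libraries plus 0.1 (horizontal log axis) of each gene (points) in the 10 lists of cofactors, ligand handling and target genes, with the median of each list as a black bar and a dashed line at 1 TPM. All 9 genes of glucocorticoid handling and 1 of 6 xenobiotic receptor targets reach 1 TPM in both libraries.

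The transcript tables were read for the 19 members at or above 1 TPM in both libraries. A single transcript led in both libraries in 16 of them, and in 10 the mean share of TPM of the leading transcript was at least 80%. In GENCODE M4, to which the deposited values refer, Rarb and Nr1i2 have a single transcript. Rxra-201 held all of the TPM of Rxra. Nr2f6-201 held 91.8% ± 0.965, Esrra-201 held 91.6% ± 1.69 and Nr2f2-201 held 83.1% ± 2.18. Shares of overlapping transcripts are estimates of the authors' model.

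Rxrb and Rora were spread over transcripts that differ in coding length. Rxrb-202, with 410 codons, held 55.5% and 62.9%, and Rxrb-201, with 524 codons, held 34.8% and 30.1%. Rora-202, with 467 codons, held 75.3% and 74.4%, and Rora-201, with 523 codons, held 9.62% and 7.48%. By expected counts Rora-201 held 30.6% ± 3.47, since its model of 10878 nt collects more reads per molecule. Rarg-202, with 447 codons, held 80.9% and 84.3%. Ppara-201 held 51.7% ± 2.28 and encodes 468 codons, as does Ppara-202 with 14.04% ± 4.38.

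The most abundant member had no dominant transcript. Nr1h2-203 held 29.7% ± 0.338 and Nr1h2-204 held 29.3% ± 0.252, with 443 and 446 codons, and they were level in replicate 1 at 10.66 TPM each. For Nr1h3, Nr1h3-202 led in replicate 1 with 52.8% and Nr1h3-201 in replicate 2 with 43.1%, and both encode 445 codons. For Rara, Rara-202 led in replicate 1 with 45.6% and Rara-204 in replicate 2 with 50.7%, with 459 and 462 codons. Nr5a2-201 held 63.7% and 50.2%. Pparg-202, with 475 codons, held 66.4% and 100%, on 47.51 and 63 counts, so the share was poorly set at this depth.

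**Figure D4:**
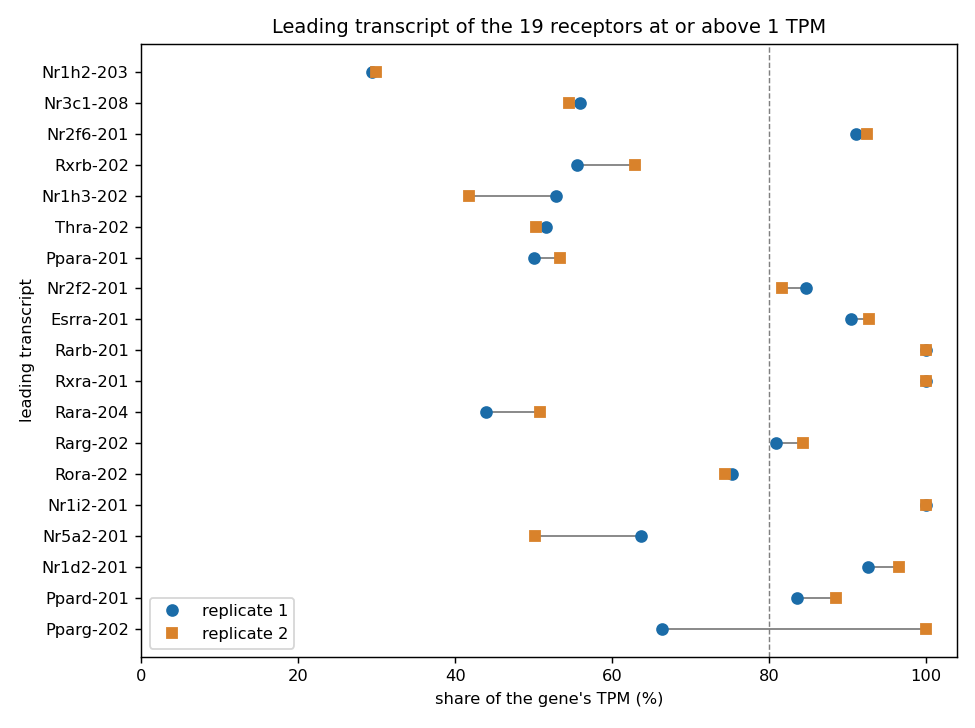
Share of the TPM of the gene (horizontal axis, percent) held by the leading transcript of each of the 19 receptors at or above 1 TPM in both libraries, in replicate 1 (circles) and replicate 2 (squares), with a dashed line at 80%. Nr1h2-203 holds 29.4% and 29.9%, and Pparg-202 differs most, with 66.4% and 100%.

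Between the libraries the counts of the members moved little. Ratios of replicate 2 over replicate 1 were taken from expected counts scaled by TMM, a factor that aligns the bulk of genes, for the 29 members with at least 20 counts in both. Of these, 1 differed by more than 1.5-fold, against 3.6% of 14244 genes with as many counts. It was Nr2f1, with 65 and 43 counts and a ratio of 0.666 (95% counting interval 0.441 to 0.991), just past the line. The members split into 16 higher and 13 lower in replicate 2. This split and the count past 1.5-fold rest on the scaling, since with spike-in totals, which shift the median of all genes by −0.63, all 29 were lower and 19 were past 1.5-fold. Their median absolute log2 ratio was 0.15, and over all genes it was 0.14.

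The interval excluded 1 for 4 of the 29 members, against 41.9% of the 14244 genes, and an interval narrows as the count grows. Besides Nr2f1, Esrra was lower in replicate 2 with a ratio of 0.783 (0.658 to 0.93). Nr5a2 was higher with 1.27 (1.04 to 1.54) and Nr1d2 with 1.26 (1.03 to 1.54), although with spike-in totals their log2 ratios turned to −0.30 and −0.31. Each interval rests on 2 read counts and covers counting error only. The tables carry no molecular identifiers, so repeated reads of a molecule cannot be told apart, and the intervals may be too narrow. For Nr5a2 the ratio of TPM was 1.86, larger than that of counts, and the incomplete transcript Nr5a2-206, of 679 nt, held 0% of its TPM in replicate 1 and 19.5% in replicate 2.

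On the TPM scale 29 of the 41 members were higher in replicate 2, and so were 78.0% of protein-coding genes at or above 1 TPM. Globin genes held 34.6% of TPM in replicate 1 and 31.2% in replicate 2. Of the 19 members at or above 1 TPM, 16 were higher in replicate 2, and 14 were once globins were left out of the total. With globins left out, 22 members in place of 19 were at or above 1 TPM in both libraries, and the mean of Nr1h2 was 59.7 TPM in place of 39.1.

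**Figure D5:**
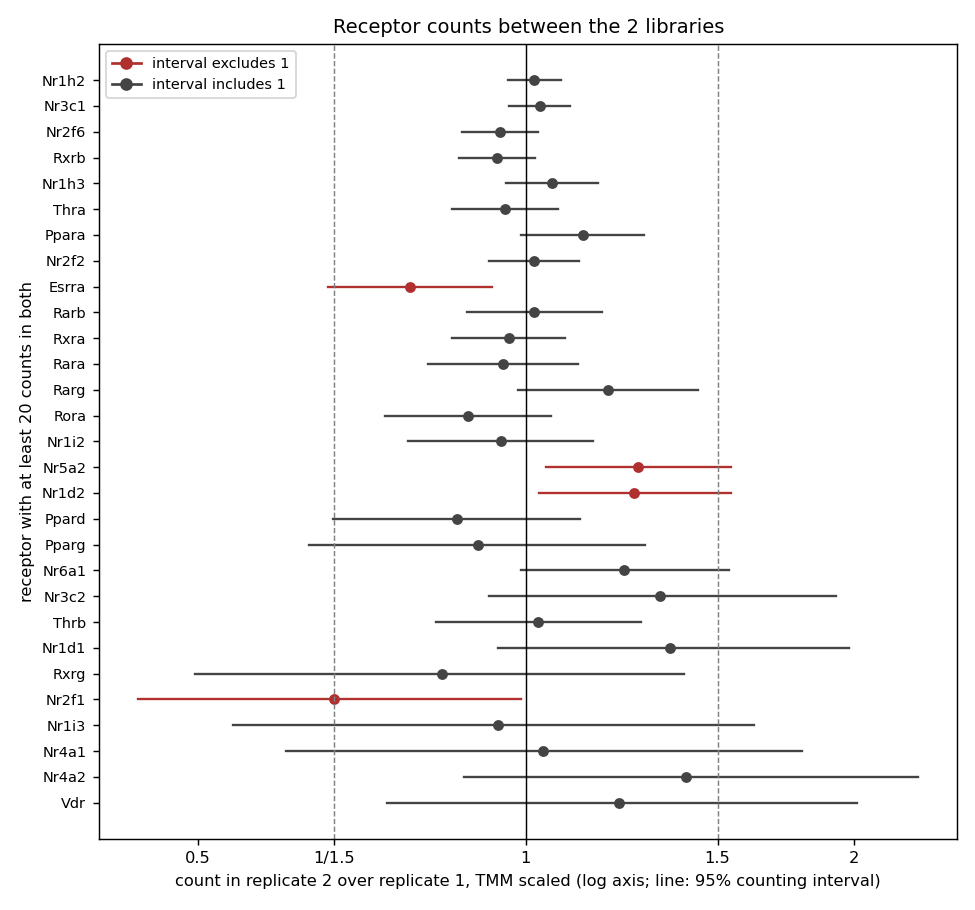
Ratio of expected counts in replicate 2 over replicate 1 after TMM scaling (points, horizontal log axis) with 95% counting intervals (lines) for the 29 receptors with at least 20 counts in both libraries, and dashed lines at 1.5-fold in each direction. The 4 red intervals exclude 1, and Nr2f1 at 0.666 lies at the lower dashed line.

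The genes of the thyroid hormone, retinoic acid and heme receptors lie in the same region of chromosome 11 and of chromosome 14, each region holding 1 member of each class. On chromosome 11 these are Thra, Nr1d1 and Rara, and on chromosome 14 they are Rarb, Thrb and Nr1d2. Thra was higher than Thrb, and Nr1d2 was higher than Nr1d1, in both libraries. Levels within a region differed, with Thra at 8.36 TPM ± 0.615 and its overlapping neighbour Nr1d1 at 0.72 TPM ± 0.269.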

How the data were processed

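Total RNA of 2 liver libraries at embryonic day 13.5 was analysed from the deposited gene and transcript tables. Per the deposited readme, values refer to mm10 with GENCODE M4. The sources used here name no aligner, quantification tool or use of strand. Expected counts are the authors' estimates of reads per gene, and TPM was scaled by the authors within each library, spike-ins and transfer RNA entries included. The deposited isoform percent was recomputed from TPM. The deposited readme fields are text of other kinds and gave no measurement.

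Symbols came from GENCODE M21 on GRCm38 by gene ID (42462 of 43346 genes, all 41 members). Complete-transcript levels divide all expected counts by the length minus 99 nt of the most counted complete coding transcript. Ratios used expected counts plus 0.5 with TMM from edgeR 4.0.16 on rounded counts, with DESeq2 1.42.0 size factors, library totals and spike-in totals as alternatives, in R 4.3.3. Intervals are exact 95% binomial intervals of 2 rounded counts, and a floor is 3 counts. Other steps used Python 3.11.15, pandas 2.3.3, numpy 2.4.6, scipy 1.17.1, matplotlib 3.10.9 and Biopython 1.88. The ratio step was tested on simulated data. With n = 2 in 1 group no test was run.

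The members, classes and gene lists were chosen with earlier results of these data known. Values per library are given for the 12 highest members, the highest of each class, members past 1.5-fold and those nearest 1 TPM, and in each list the 3 highest genes and, where at most 4, those below 1 TPM. Some list genes under this rule are not reported here. Other members and genes named were chosen after their values were seen. Broad groups, complete-transcript levels and ratios between related members were added after the data were seen. Promoter windows came from RefSeq on GRCm38.p6 and coding sequences from GENCODE M21 transcripts. Depth was 39644066 and 38150988 expected counts in all, so a member at 20 counts carries a wide interval.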

Additional observations from a re-analysis of the deposited data

How the results depend on the processing

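Settings tried were the pseudocount, low-value filters, posterior mean TPM, expected counts, thresholds of 0.5 and 2 TPM, scaling, globins left out of the total, levels over complete transcripts and each replicate alone. Of 50 values for main results under settings other than a replicate alone, 31 kept within the spread between replicates or within 1.5 times the count, and 19 did not. The median log2(TPM + 0.1) of the members, −0.04, was 0.91 as log2(TPM + 1), 0.52 with a mean count of at least 10 and 0.24 with posterior mean TPM. By expected counts the shares were 35.7% for sensors, 28.6% for hormone and vitamin receptors, 22.1% for orphan receptors and 13.7% for retinoid X receptors. With posterior mean TPM the first 3 were 42.2%, 25.4% and 20.8%, and over complete transcripts the 4 were 46.8%, 19.1%, 20.6% and 13.5%. The 1 member past 1.5-fold became 0 with library totals, 3 with a mean count of at least 10, 0 with a mean count of at least 100 and 19 with spike-in totals, which shift the median of all genes by −0.63 and put all 29 members lower in replicate 2. At 0.5 TPM, 2 xenobiotic receptor targets were counted in place of 1. With posterior mean TPM the log2 ratios of Rara and of Rarb over Rarg turned to −0.49 and −0.46. The cause was not tested. Among the levels of the 21 highest members, leaving globins out moved all 21 beyond the spread, posterior mean TPM 11 and complete transcripts 7. A replicate alone cannot move a mean of 2 beyond its SD, so that setting says nothing about stability. Members with few counts are limited by depth. No paired analysis was possible because the libraries form 1 group.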
